A study of Mus musculus with 3 samples.

Results

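The 41 genes described here act in mitosis or in the passage from G2 to M. They were chosen by name for their roles: mitotic cyclins, CDK1 and its regulators (6 genes), mitotic kinases (6), the spindle checkpoint, the anaphase-promoting complex and separase (6), the centromere and kinetochore (6), spindle motors and microtubule proteins (7), cytokinesis and the chromosomal passenger complex (4), and chromosome structure (6). All 41 were on the array, with 57 probes, and all 57 probes were well above background in all 6 channels. All 41 genes were therefore among the 21743 genes and transcripts tested.

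Cells enter mitosis when cyclin B and CDK1 become active, and Polo and Aurora kinases then drive spindle assembly and cytokinesis. Most of these transcripts are repressed in quiescent cells by the DREAM complex and are induced in late S phase and G2 by B-MYB, MuvB and FOXM1, so that their level in a culture follows the share of cells in G2 and M. In the mammary gland, RANK ligand (RL) is a mediator of progesterone and is known to drive proliferation of the epithelium.

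RNA came from primary cultures of PyMT tumors of 3 mice, in which the MMTV promoter drives the polyoma middle T oncogene mainly in mammary epithelium. From each tumor, 1 culture was treated with RL for 24 h and 1 was left untreated as the control. The labels give a dose of 1000 µg/mL, and the methods of the study give a lower one. Both cultures of a tumor grew in medium with serum, EGF, insulin and cholera toxin, so the controls received growth factors too. The age and strain of the mice are not given in the labels. Both cultures of a tumor were hybridized on 1 two-color array, with RL in Cy3 and control in Cy5 for tumors 1 and 3 and the dyes exchanged for tumor 2. Each condition had 1 culture per tumor, and tumor 2 was the only array of its dye order, so tumor 2 and its dye order cannot be told apart. All values below are log2 ratios of RL over control on 1 array, or normalized log2 intensities of 1 dye (levels).

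The cultures carried the epithelial markers that a mammary tumor should have. All 9 epithelial markers (Epcam, Cdh1, Cldn3 and 6 keratins) were well above background in all 6 channels. So were all 9 fibroblast markers and 7 of 8 myeloid markers. Of 6 T cell markers, Cd3e, Cd4 and Lck were too, and of 5 endothelial markers, Pecam1 and Kdr were. The other T cell markers (Cd3d, Cd3g and Cd8a) and endothelial markers (Cdh5, Tek and Emcn) did not pass the filter on dim probes. Whether these markers came from other cell types or from the tumor cells was not tested. In bulk RNA, fewer cells of a type and less RNA per cell cannot be told apart, and for mitotic genes a change in the share of dividing cells and a change per dividing cell cannot be told apart either.

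The 6 genes taken as known RL responders of the NF-κB pathway had log2 ratios above 0 in every tumor, beside 14.1% of all genes, with medians of 1.15, 0.45 and 0.24 in tumors 1, 2 and 3. Nfkbia, which encodes the inhibitor IκBα and is itself induced by NF-κB, had ratios of 1.47, 0.47 and 0.38. Traf1, an adaptor of TNF receptors, had ratios of 1.14, 0.31 and 0.65. None of the 6 passed an adjusted p of 0.05 by limma (lowest adjusted p = 0.228; all 6 at an unadjusted p under 0.05, beside 3.5% of all genes). All 6 passed it with a dye term in the fit, beside 0.557% of all genes. That fit had 1 residual degree of freedom, and on 1 simulated data set its share of false calls was above its threshold. By rank product, 3 of them passed a proportion of false positives (pfp) of 0.05, beside 0.134%. The 6 genes were chosen with earlier results of these data known, so these counts describe them and do not test the treatment. Tumor 1 had the highest median of these 6 genes.

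No mitotic gene changed past the threshold. By limma, 0 of the 41 genes were higher and 0 lower in RL cultures once p was adjusted (under 0.05), beside 0.0046% higher and 0.023% lower of everything tested. At an unadjusted p under 0.05, 5 of the 41 were higher (Cenpe, Mad2l1, Smc4, Prc1 and Birc5) and 0 were lower, beside 3.5% higher and 3.58% lower over all genes tested. By rank product at a pfp under 0.05, 0 of the 41 were higher and 0 lower, beside 0.134% and 0.207% of all genes with a value on all 3 arrays. With a dye term, 0 of the 41 were higher and 0 lower, beside 0.557% and 0.727% of all genes. The lowest adjusted p among the 41 was 0.550 without and 0.162 with the dye term, both for Cenpe. Without tumor 2, Smc4 alone was past the threshold (log2 change 0.27, adjusted p = 0.0494), in a fit where both remaining arrays had RL in Cy3 and 2.56% of all genes were higher and 4.21% lower.

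After loess, the changes were small and tilted above 0. The median log2 change of the 41 genes was 0.09, beside 0.00 over all genes, and it turned to -0.03, beside -0.09 over all genes, when each array was only centered on its median in place of loess. The mean of the 3 tumors was above 0 for 32 of 41 genes, beside 49.1% of all genes, and ranged from -0.10 (Cenpf and Cdc25c) to 0.21 (Cenpe). Under median centering, 9 of 41 means were above 0, beside 24.3% of all genes. With the scanner's processed intensities the range was -0.24 (Cenpf) to 0.31 (Aurkb), and with the authors' ratios it was -0.17 (Cenpf) to 0.22 (Mad2l1). The 95% confidence intervals of all 41 means lay between -0.28 and 0.37, and 36 of the 41 held 0. At the brightest probe of each gene, no ratio in any tumor exceeded 0.38 or fell below -0.32, so all 41 stayed within 0.5 of 0 on every array, as did 96.8% of all genes with 3 values. Under median centering 18 of 41 did, beside 59.1% of all genes, and with processed intensities 39 of 41, beside 86.8%. Among their other probes, the highest ratios were 0.45 (Mad2l1, tumor 1) and 0.42 (Nuf2, tumor 3). The median SD of a gene between tumors was 0.14 for the 41 genes and 0.12 for all genes.

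**Figure D1:**
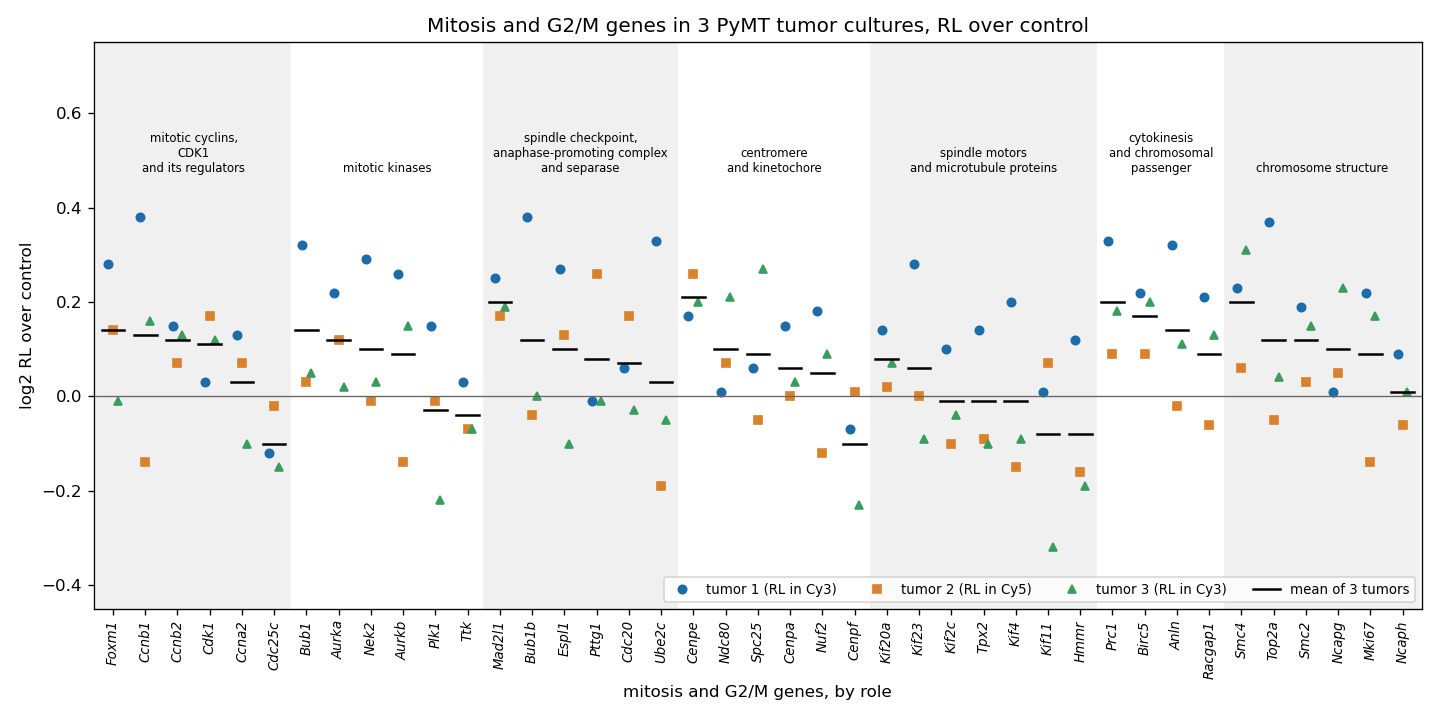
Log2 RL over control (vertical axis) of the 41 mitosis and G2/M genes, grouped by role and ordered by their mean within a role. Symbols are the 3 tumors and black bars their mean; points of tumor 1 lie above 0 for 38 of 41 genes (2 of 41 under median centering in place of loess, beside 18.5% of all genes), while those of tumors 2 and 3 lie on both sides of 0.

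After loess, the tilt came mainly from tumor 1. In tumor 1, 38 of the 41 genes had a ratio above 0, beside 47.9% of all genes, and their median was 0.18, but under median centering 2 of 41 were above 0, beside 18.5% of all genes, and the median was -0.27, beside -0.32. In tumor 2, 21 of 41 were above 0, beside 52.7% of all genes, with a median of 0.00 (under median centering 40 of 41 beside 83.3%, and 0.48 beside 0.33). In tumor 3, 24 of 41 were above 0, beside 48.4% of all genes, with a median of 0.03 (under median centering 2 of 41 beside 16.8%, and -0.36 beside -0.28). Of the 41 genes, 30 had their highest ratio in tumor 1, 7 in tumor 2 and 4 in tumor 3. Over all genes the shares were 30.8%, 39.1% and 30.1%. Without tumor 1, the median of the 41 genes was 0.01. Tumor 1 was also the tumor with the highest median of the NF-κB genes (1.15), and the only one in which the median of the fibroblast markers (-0.29) was well below that of the epithelial markers (0.14). The part of these shifts in the result was not tested.

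**Figure D2:**
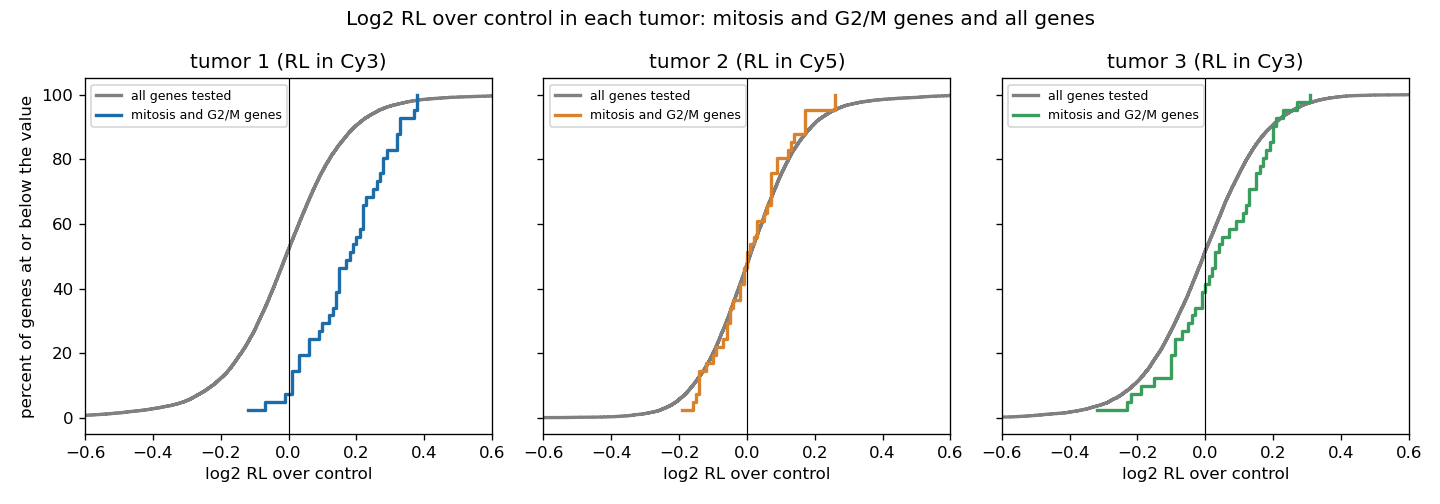
Share of genes (vertical axis, percent) at or below each log2 RL over control (horizontal axis) in tumors 1, 2 and 3, for the 41 mitosis and G2/M genes (colored) and for all genes tested (gray). After loess, the colored line lies to the right of the gray one in tumor 1 (medians 0.18 and -0.01; under median centering -0.27 and -0.32) and crosses it in tumor 2 (medians 0.00 and 0.01).

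Most of the 41 genes did not have the same sign in every tumor. Of the 41 genes, 13 had ratios above 0 in all 3 tumors, beside 14.1% of all genes, and 1 (Cdc25c) had ratios below 0 in all 3, beside 13.5% of all genes. Under median centering, 1 of the 41 was above 0 in all 3 tumors, beside 3.44% of all genes, and 0 were below 0 in all 3, beside 3.68%. Another 11 of the 41 were above 0 in tumors 1 and 3 and below 0 in tumor 2, the pattern that follows the dye order, beside 15.2% of all genes. The opposite pattern was seen for 2 of 41, beside 19.4% of all genes. Across the 41 genes, the ratios of tumors 1 and 2 had a Pearson's r of -0.205, those of tumors 1 and 3 an r of 0.279, and those of tumors 2 and 3 an r of 0.165. Across all genes these were -0.112, 0.453 and -0.108. The tumors that shared a dye order were thus the most alike, in the 41 genes and in all genes; genes on 1 array are not independent of each other.

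All values by role are those after loess. Among mitotic cyclins, CDK1 and its regulators, 5 of 6 means were above 0, beside 49.1% of all genes, and the median was 0.11. Under median centering, 9 of the 41 means were above 0, beside 24.3%. Ccnb1 encodes cyclin B1, the partner of CDK1 at mitotic entry. Its levels in control and RL cultures were 11.93 and 12.31 in tumor 1, 12.94 and 12.81 in tumor 2, and 12.49 and 12.65 in tumor 3. The level was higher with RL in tumors 1 and 3 and lower in tumor 2, and the 2 conditions overlapped (log2 change 0.13 ± 0.10, SE, n = 3; adjusted p = 0.841 by limma). Cdk1, the kinase itself, had levels of 11.73 and 11.76 in tumor 1, 12.38 and 12.54 in tumor 2, and 12.01 and 12.12 in tumor 3. All 3 tumors were slightly higher with RL, by less than the differences between tumors (0.11 ± 0.07, adjusted p = 0.818). Foxm1, a transcription factor of G2/M genes, had levels of 9.95 and 10.23, 10.63 and 10.78, and 10.61 and 10.61 in tumors 1, 2 and 3. At this probe tumors 1 and 2 were higher with RL and tumor 3 was level (0.14 ± 0.08, adjusted p = 0.782), while its other probe had ratios of 0.15, -0.03 and 0.16. Cdc25c, a phosphatase that activates CDK1, had levels of 9.27 and 9.15, 9.73 and 9.71, and 9.59 and 9.43. It was lower with RL in each tumor, by 0.02 to 0.15 (-0.10 ± 0.07, adjusted p = 0.834). The cyclin genes Ccnb2 (0.12) and Ccna2 (0.03) lay between these means.

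The mitotic kinases had a median of 0.10, with 4 of 6 means above 0, beside 49.1% of all genes. After loess, all 6 were above 0 in tumor 1, beside 47.9%. Under median centering, 2 of the 41 genes were above 0 there, beside 18.5%. Plk1, the Polo kinase of mitotic entry and centrosome maturation, had levels of 13.17 and 13.33 in tumor 1, 13.84 and 13.83 in tumor 2, and 13.98 and 13.76 in tumor 3. It was higher with RL in tumor 1, level in tumor 2 and lower in tumor 3 (-0.03 ± 0.08, adjusted p = 0.967). Aurkb, the kinase of the chromosomal passenger complex, had levels of 6.29 and 6.55, 6.48 and 6.34, and 6.47 and 6.62. It followed the dye order, higher with RL in tumors 1 and 3 and lower in tumor 2 (0.09 ± 0.09, adjusted p = 0.895), and its mean was 0.31 with the scanner's processed intensities and 0.16 with the authors' ratios. Ttk, the kinase MPS1 of the spindle checkpoint, had levels of 7.46 and 7.48, 7.89 and 7.82, and 7.88 and 7.81. Its ratios stayed within 0.07 of 0 in every tumor (-0.04 ± 0.07, adjusted p = 0.935). Bub1 (0.14), Aurka (0.12) and Nek2 (0.10) had higher means.

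**Figure D3:**
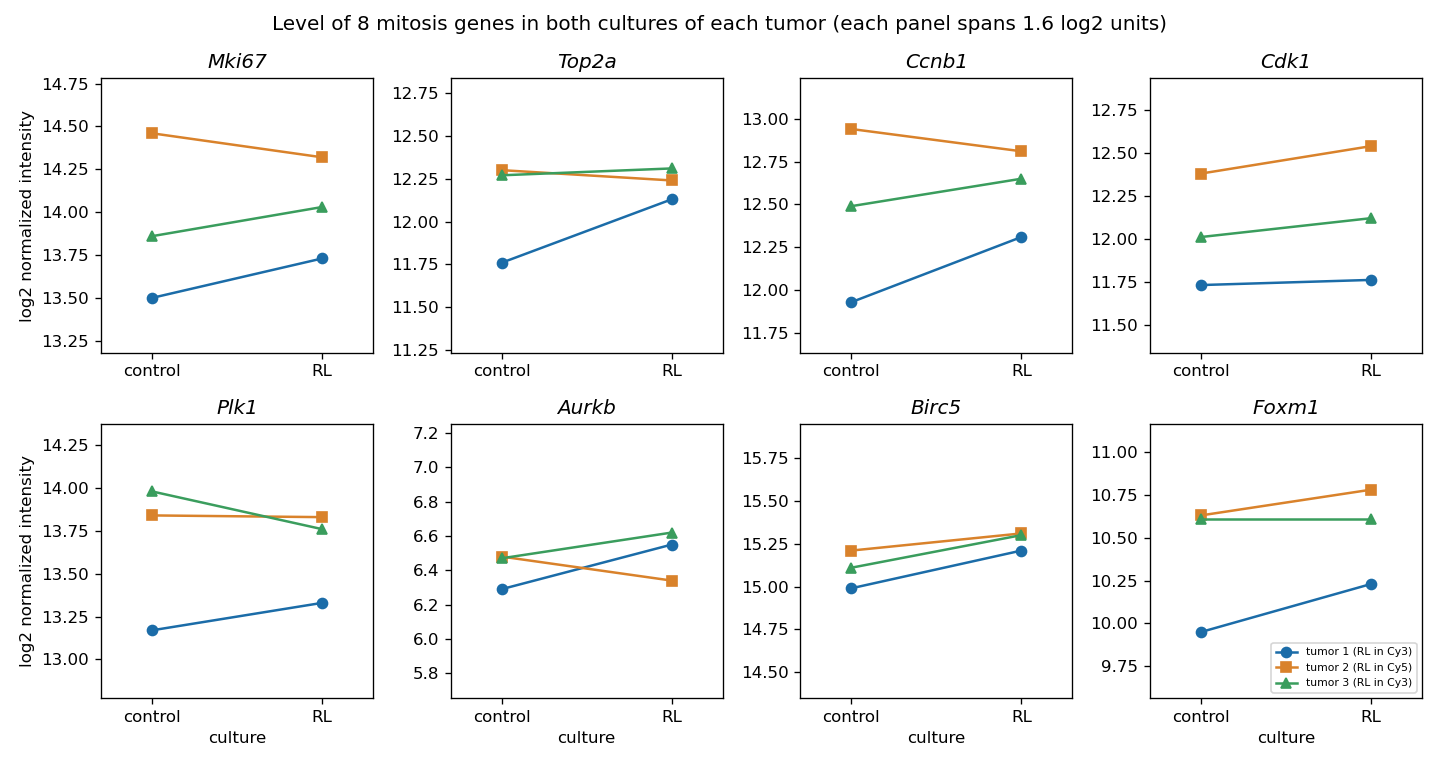
Normalized log2 intensity (vertical axis) of Mki67, Top2a, Ccnb1, Cdk1, Plk1, Aurkb, Birc5 and Foxm1 in the control and the RL culture of each tumor, joined by a line per tumor (symbols; n = 3). At the brightest probe shown, only Cdk1 and Birc5 were higher with RL in all 3 tumors, and other probes of both genes had ratios below 0 in at least 1 tumor; levels of different genes are not comparable.

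Genes of the spindle checkpoint, the anaphase-promoting complex and separase had a median of 0.09. All 6 means were above 0, beside 49.1% of all genes. Mad2l1 encodes MAD2, which holds back the anaphase-promoting complex until chromosomes are attached. Its levels were 11.91 and 12.16 in tumor 1, 12.33 and 12.50 in tumor 2, and 12.21 and 12.40 in tumor 3. At this probe all 3 RL cultures were higher than their own control by 0.17 to 0.25, although the control of tumor 2 was above the RL culture of tumor 1 (0.20 ± 0.07, adjusted p = 0.562). Its other 2 probes gave means of 0.10 and 0.22, and the first of these had a ratio of -0.10 in tumor 2. Bub1b (0.12), Espl1, which encodes separase (0.10), Pttg1, which encodes securin (0.08), Cdc20 (0.07) and Ube2c (0.03) had smaller means. At the brightest probes, Mad2l1 was the only 1 of the 6 above 0 in tumor 3, beside 48.4% of all genes. The other probe of Ube2c had 0.09 there.

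Centromere and kinetochore genes had a median of 0.07 and held both ends of the range. Cenpe, a kinesin that carries chromosomes to the spindle equator, had levels of 12.27 and 12.44 in tumor 1, 13.08 and 13.35 in tumor 2, and 12.68 and 12.89 in tumor 3. Each RL culture was above its control, with ratios of 0.17, 0.26 and 0.20 (0.21 ± 0.07, adjusted p = 0.550; 0.23 with a dye term, adjusted p = 0.162). Cenpf, a large kinetochore protein of G2 and M, had levels of 6.76 and 6.69, 6.83 and 6.85, and 6.90 and 6.67. It was lower with RL in tumors 1 and 3 and level in tumor 2 (-0.10 ± 0.08, adjusted p = 0.850). The NDC80 complex, which binds microtubules at the kinetochore, had means of 0.10 (Ndc80), 0.09 (Spc25) and 0.05 (Nuf2, whose other probe had ratios of 0.28, 0.14 and 0.42 and a mean of 0.28), and the histone gene Cenpa of the centromere had a mean of 0.06.

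Spindle motors and microtubule proteins were the role with the lowest median (-0.01). Of 7 means, 5 were below 0 and 2 above it, beside 49.1% of all genes above 0. Kif11, the kinesin that pushes spindle poles apart, had levels of 9.06 and 9.06 in tumor 1, 9.58 and 9.65 in tumor 2, and 9.57 and 9.24 in tumor 3. Its mean rested on tumor 3, where the ratio was -0.32 (-0.08 ± 0.09, adjusted p = 0.901). Hmmr, a spindle and hyaluronan-binding protein, had levels of 11.96 and 12.08, 12.04 and 11.88, and 12.17 and 11.98. It was higher with RL in tumor 1 and lower in tumors 2 and 3 (-0.08 ± 0.08, adjusted p = 0.898). At the brightest probes all 7 ratios were above 0 in tumor 1, beside 47.9% of all genes. In tumor 3 only that of Kif20a (0.07) was, beside 48.4%. Under median centering, 2 of the 41 genes were above 0 in each of these tumors, beside 18.5% and 16.8%. The other probe of Tpx2 had ratios of -0.15, 0.17 and -0.05, opposite in sign to the first in tumors 1 and 2. The other motors had means of 0.08 (Kif20a), 0.06 (Kif23), -0.01 (Kif2c) and -0.01 (Kif4), and Tpx2, an activator of Aurora A, had a mean of -0.01.

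Cytokinesis and chromosomal passenger genes had the highest median of the roles (0.15). After loess, all 4 were above 0 in tumors 1 and 3, beside 47.9% and 48.4% of all genes. Under median centering, 2 of the 41 genes were above 0 in each of these tumors, beside 18.5% and 16.8%. Prc1, which bundles microtubules of the spindle midzone, had levels of 12.07 and 12.39 in tumor 1, 12.88 and 12.96 in tumor 2, and 12.65 and 12.83 in tumor 3. All 3 RL cultures were above their controls (0.20 ± 0.07, adjusted p = 0.647). Birc5 encodes survivin, a subunit of the passenger complex, and had levels of 14.99 and 15.21, 15.21 and 15.31, and 15.11 and 15.30. At this probe it was higher with RL in all 3 tumors, least in tumor 2 (0.17 ± 0.07, adjusted p = 0.687), while its other 2 probes had ratios of -0.11 and -0.06 in tumor 2. Anln, the actin-binding protein anillin (0.14), and Racgap1, a regulator of RhoA at the midzone (0.09), were below 0 in tumor 2, at -0.02 and -0.06, although the other probe of Racgap1 had 0.21 there.

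Chromosome structure genes had a median of 0.11. After loess, all 6 were above 0 in tumors 1 and 3, beside 47.9% and 48.4% of all genes. Under median centering, 2 of the 41 genes were above 0 in each of these tumors, beside 18.5% and 16.8%. Mki67 encodes Ki-67, the usual marker of cycling cells. Its levels were 13.50 and 13.73 in tumor 1, 14.46 and 14.32 in tumor 2, and 13.86 and 14.03 in tumor 3. It followed the dye order, with ratios of 0.22, -0.14 and 0.17, and the cultures of the 2 conditions overlapped (0.09 ± 0.09, adjusted p = 0.895). Top2a, the topoisomerase that decatenates sister chromatids, had levels of 11.76 and 12.13, 12.30 and 12.24, and 12.27 and 12.31. Only tumor 1, with a ratio of 0.37, differed from 0 by more than 0.05 (0.12 ± 0.09, adjusted p = 0.848). Smc4, a condensin subunit, had levels of 12.43 and 12.66, 13.24 and 13.31, and 12.73 and 13.04. It was higher with RL in all 3 tumors, least in tumor 2 (0.20 ± 0.08, adjusted p = 0.645). The other condensin genes had means of 0.12 (Smc2), 0.10 (Ncapg) and 0.01 (Ncaph).

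Probes of 1 gene did not always give the same sign. Of the 41 genes, 12 had more than 1 probe, and for 4 of them (Ccnb1, Cdk1, Kif2c and Mki67) the means of the probes lay on both sides of 0. The 2 other probes of Ccnb1 had means of 0.01 and -0.01, with a ratio of 0.09 each in tumor 1 where the brightest probe had 0.38. The other probes of Cdk1 had means of -0.07 and 0.06. The second probe of Mki67 had ratios of 0.09, -0.03 and -0.19 in tumors 1, 2 and 3, with a mean of -0.04, while the first had 0.17 in tumor 3. Kif2c, a kinesin that depolymerizes microtubules, had levels of 9.04 and 9.15, 9.80 and 9.70, and 9.63 and 9.59 in tumors 1, 2 and 3. It was higher with RL in tumor 1 alone (-0.01 ± 0.07, adjusted p = 0.982), and its probes had means of -0.01 and 0.03. In these 4 genes, differences between probes were thus as large as the changes with RL. In the other genes with more than 1 probe, the probe means shared a sign, although ratios in single tumors could differ in sign. The probe means were close for Foxm1 (0.14 and 0.10) and Racgap1 (0.09 and 0.10), but apart for Nuf2 (0.05 and 0.28).

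With a dye term in the fit, the log2 changes of the 41 genes ranged from -0.10 to 0.23 with a median of 0.07, beside 0.00 over all genes, and 30 of 41 were above 0, beside 51.2%. The dye coefficient, which is 0.5 of the difference between tumor 2 and the mean of tumors 1 and 3 and so holds both dye and tumor, was below 0 for 29 of 41 genes (70.7%) and for 47.3% of all genes, with a median of -0.06 for the 41 genes. This fit of 3 arrays had 1 residual degree of freedom.

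Other genes of the cell cycle were set beside these. Of 82 further G2/M and mitosis genes tested, 0 were higher and 0 lower at an adjusted p under 0.05 by limma (7 higher and 0 lower at an unadjusted p under 0.05, beside 3.5% and 3.58% of all genes). Their median was 0.10, with 64 means above 0, beside 49.1% of all genes, and 25 genes above 0 in all 3 tumors, beside 14.1%. Their medians were 0.17, 0.02 and 0.05 in tumors 1, 2 and 3, close to the 0.18, 0.00 and 0.03 of the 41 genes. The highest mean was that of Lmnb1, the lamin B1 gene, with ratios of 0.56, 0.14 and 0.38 (0.36 ± 0.09, adjusted p = 0.392 by limma and 0.0289 with a dye term), and the lowest was that of Kif18b (-0.10). The 40 genes of DNA replication and S phase also had a median of 0.09, with medians of 0.25, 0.01 and 0.07 by tumor, 13 of 40 above 0 in all 3 tumors, beside 14.1% of all genes, and 0 past the threshold by limma (7 higher and 0 lower at an unadjusted p under 0.05, beside 3.5% and 3.58%). Mcm6, a subunit of the replicative helicase, was the highest of them (ratios of 0.54, 0.00 and 0.35), and Mcm5 the lowest (mean -0.10). Lmnb1 (0.47) and Mcm6 (0.44) passed the threshold without tumor 2, where 2.56% of all genes were higher and 4.21% lower. After loess, S phase and mitotic genes thus both had their highest median in tumor 1.

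After loess, regulators of the cycle had medians closer to 0 than the 41 genes, or below 0. Under median centering the 41 genes had a median of -0.03 and all genes -0.09, while Ccnd1 had -0.16 and Cdkn1a -0.19. The share of all genes with a mean above 0 was then 24.3%. G1 and G1/S cyclins and CDKs had a median of 0.03 over 10 genes, from -0.07 (Cdk6) to 0.27 (E2f1, a transcription factor of S phase genes). Ccnd1, the cyclin D1 gene that RL is known to induce in mammary epithelium, had ratios of 0.16, -0.06 and -0.09 (mean 0.00, adjusted p = 0.992). Among 15 CDK inhibitors and genes of cell cycle exit, 3 means were above 0, beside 49.1% of all genes, the median was -0.07, and 4 genes were below 0 in all 3 tumors, beside 13.5%. Rbl2, which encodes the pocket protein p130 of the DREAM complex, had the lowest mean, with ratios of -0.18, -0.24 and -0.21 (-0.21 ± 0.07, adjusted p = 0.550), and Trp53inp1 the highest (0.07). Cdkn1a, which encodes p21, had ratios of 0.23, -0.18 and -0.22 (-0.06 ± 0.10, adjusted p = 0.935). DREAM and MuvB subunits had a median of -0.02 over 10 genes, from -0.16 (Lin37) to 0.18 (Lin9), and 13 subunits of the anaphase-promoting complex had a median of 0.05, from -0.05 (Cdc27) to 0.08 (Anapc11). Averaged over the probes of each gene, Cdc27 had 0.02 and Anapc11 -0.04, and with processed intensities Cdc27 had 0.06. In these 4 lists, 0 genes passed an adjusted p of 0.05 by limma, by rank product or with a dye term, and 1 (E2f1) was higher and 1 (Rbl2) lower at an unadjusted p under 0.05, beside 3.5% and 3.58% of all genes. Of the genes named here, E2f1 (0.34) and Lin9 (0.29) passed the threshold without tumor 2, where 2.56% of all genes were higher and 4.21% lower.

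Marker genes of cell types moved between tumors as well. Epithelial markers had medians of 0.14, -0.17 and -0.07 in tumors 1, 2 and 3, from Krt18 (mean -0.33) to Epcam (0.05). The Krt18 ratios of -0.73, 0.43 and -0.70 followed the dye order, and its mean was -0.14 with a dye term and from -0.72 (without tumor 2, where it passed the threshold) to -0.14 with 1 tumor left out. Fibroblast markers had medians of -0.29, 0.11 and -0.05, from Pdgfra (-0.19) to Fap (0.09). Myeloid markers had medians of -0.10, -0.07 and -0.02, from Cd68 (-0.23) to Cd14 (0.15). Cd68 (-0.27) and Cd14 (0.31) passed the threshold without tumor 2, where 2.56% of all genes were higher and 4.21% lower. The mean of Cd14 was -0.06 without tumor 1. Of the 3 T cell markers tested, Cd4 (-0.04) was the lowest and Lck (0.11) the highest, and the 2 endothelial markers tested were Pecam1 (-0.11) and Kdr (0.10). In tumor 1 the medians of the mitotic genes (0.18; under median centering -0.27, beside -0.32 over all genes) and of the epithelial markers were above 0 and that of the fibroblast markers below it, although Krt18 had a ratio of -0.73 there. Whether the makeup of the cultures had a part in the mitotic ratios was not tested.

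**Figure D4:**
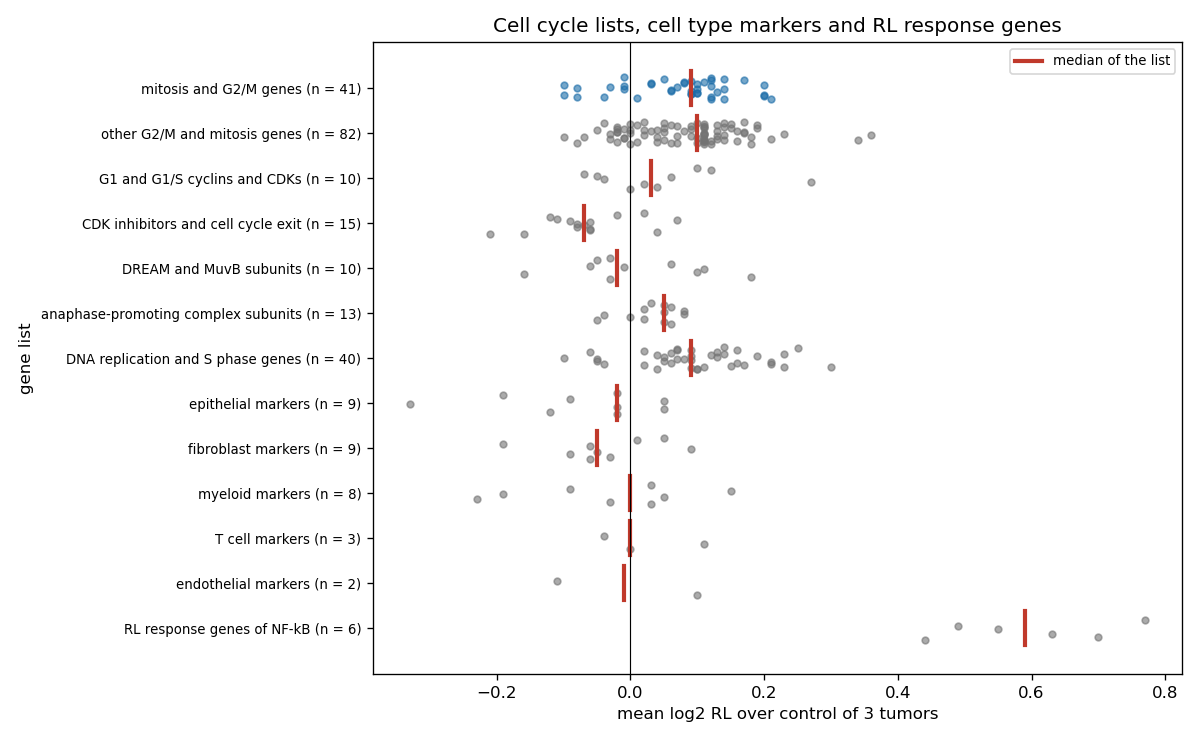
Mean log2 RL over control of 3 tumors (horizontal axis) of each gene (points) in the 41 mitosis and G2/M genes (blue), other cell cycle lists, cell type markers and RL response genes of NF-κB (gray), with the median of each list as a red bar. The medians of the mitosis and G2/M genes (0.09) and of DNA replication genes (0.09) lie far below that of the RL response genes (0.59). All lists were chosen with earlier results of these data known. The median of the CDK inhibitors (-0.07) lies below 0. Under median centering in place of loess the median of the 41 genes is -0.03, beside -0.09 over all genes.

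Many promoters of these genes share short motifs. RefSeq promoters (GRCm38.p6, reaching from upstream of the start to 50 bases after it) were matched for 34 of the 41 genes, with 35 promoters; Aurkb, Ccna2, Cdc25c, Foxm1, Kif20a, Smc4 and Tpx2 had no entry. The cell cycle genes homology region (CHR), which MuvB complexes bind, was searched as TTTGAA or TTTAAA, and the box bound by NF-Y as CCAAT, each on both strands (TTTAAA reads the same on both). TTTGAA was found in 26 of the 35 promoters (74.3%), beside 17.9% of all 32851 promoters in the table. TTTAAA was found in 9 (25.7%), beside 13.2%, and 1 or the other in 29 (82.9%), beside 27.6%. CCAAT was found in 27 (77.1%), beside 37.4%, and both a CHR match and CCAAT in 25 (71.4%), beside 3525 of all 32851. A CHR match that began within 50 bases of the start was present in 26 promoters (74.3%), beside 8.28%. These matches are letters in a window and not shown sites. The 100 bases before the start are printed for 5 genes with matches there, the central cyclin and kinases (Ccnb1, Cdk1 and Plk1), Prc1 from among the highest means (at the second of its starts) and Kif11 from among the lowest, 5′ to 3′ on the strand of the gene, with CHR and CCAAT letters of either strand in capitals.
Ccnb1 (chr13:100786487-100786586, minus strand): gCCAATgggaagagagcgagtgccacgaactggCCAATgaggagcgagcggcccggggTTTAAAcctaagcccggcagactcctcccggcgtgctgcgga
Cdk1 (chr10:69352913-69353012, minus strand): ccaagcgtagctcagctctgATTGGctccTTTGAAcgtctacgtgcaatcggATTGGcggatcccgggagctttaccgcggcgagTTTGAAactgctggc
Plk1 (chr7:122159335-122159434, plus strand): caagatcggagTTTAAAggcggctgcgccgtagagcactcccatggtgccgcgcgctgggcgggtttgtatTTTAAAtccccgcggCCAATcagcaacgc
Prc1 (chr7:80294376-80294475, plus strand): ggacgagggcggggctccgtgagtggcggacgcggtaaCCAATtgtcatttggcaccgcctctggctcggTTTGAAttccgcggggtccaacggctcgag
Kif11 (chr19:37376282-37376381, plus strand): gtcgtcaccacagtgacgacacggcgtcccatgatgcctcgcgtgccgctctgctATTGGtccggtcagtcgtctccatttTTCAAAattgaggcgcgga

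These windows were picked for their matches. The same window of Hmmr, another of the lowest means, held CCAAT and no CHR match, but a TTTGAA began just after it, at base 9. The window of the first start of Prc1 ended within its CHR match. The ratios overlapped between genes with and without these letters. The 25 matched genes with TTTGAA had a median log2 change of 0.09 and the 9 without had 0.13 (0.15 and 0.22 in tumor 1, 0.00 and 0.03 in tumor 2, 0.02 and 0.09 in tumor 3). The 28 matched genes with a CHR match had a median log2 change of 0.09 and ranged from -0.10 to 0.21, and the 6 without had a median of 0.09 and ranged from 0.01 to 0.20. The 26 genes with CCAAT and the 8 without also had a median of 0.09 each. In tumor 1 the medians were 0.18 for genes with a CHR match and 0.22 for those without. Cenpe, the gene with the highest mean, and Cenpf, one of the lowest, both held CHR and CCAAT matches.

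**Figure D5:**
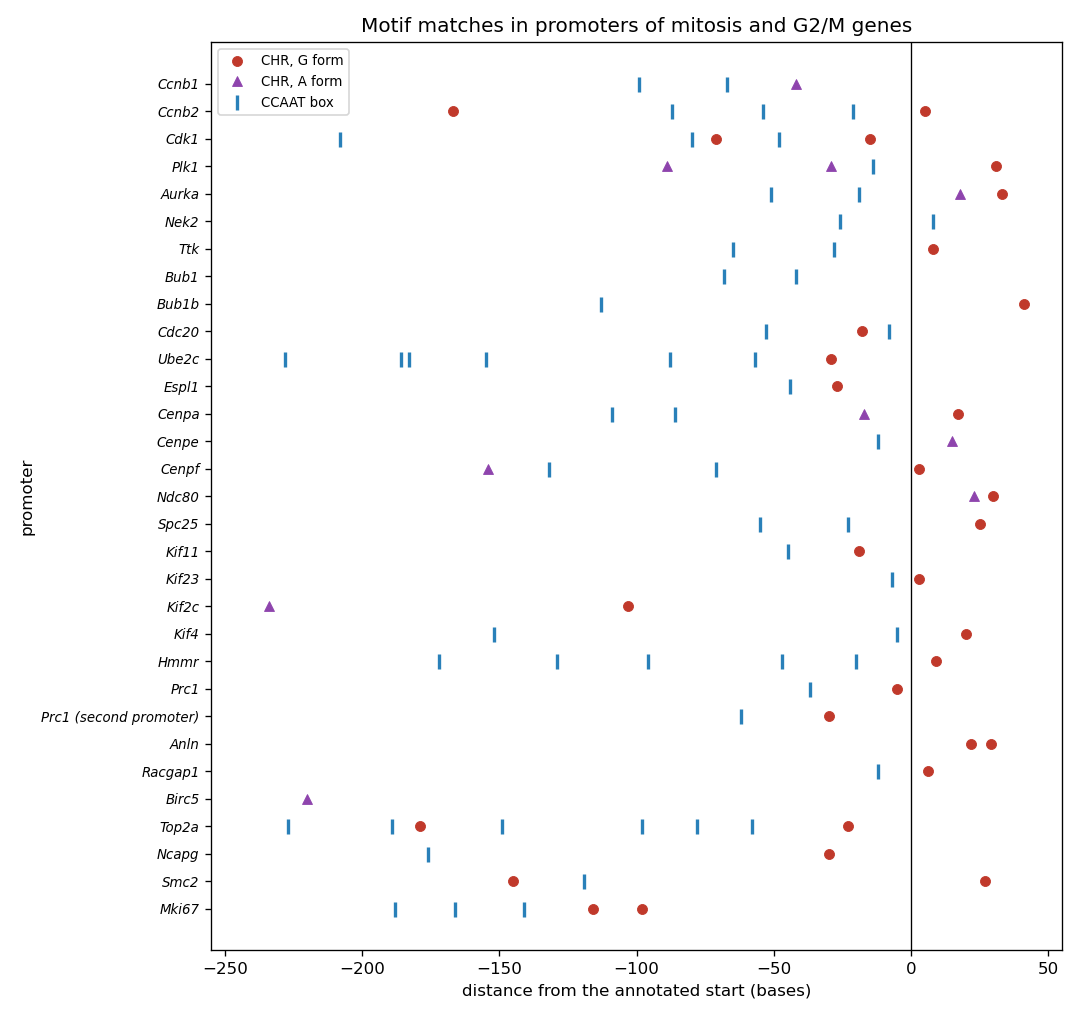
Matches of the 2 CHR forms (G form, circles; A form, triangles) and of the CCAAT box (bars) in the promoters of the matched mitosis and G2/M genes that held any, by the distance of their first base from the annotated start (horizontal axis, bases). CHR matches gather within 50 bases of the start, in 26 of 35 promoters, and most CCAAT boxes lie upstream of them.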

How the data were processed

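Tumor cultures with and without RL were compared on 3 Agilent two-color arrays. The authors deposited median spot and background intensities of both dyes, read with Agilent Feature Extraction 10.7.3.1, and processed intensities that the same software had background-subtracted and dye-normalized. The methods of the study describe log2 ratios of each condition over the control. The authors' deposited table of log2 ratios does not itself state its direction. Set against the scanner's ratios it was Cy5 over Cy3 on all arrays (column medians of 0.0024, -0.0011 and 0.0007), and after turning tumors 1 and 3 it had a Pearson's r of 0.965, 0.956 and 0.963 with the values used here.

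The programs were R 4.3.3, limma 3.58.1, Python 3.11.15, pandas 2.3.3 and matplotlib 3.10.9. Median intensities were corrected with normexp (offset 50), 3671 control spots were dropped, and log ratios were normalized by intensity loess, loess on row and column (span 0.1) and Aquantile. Outlier spots (204, 195 and 223 on the 3 arrays) were left out, and spots of a probe were averaged. Accessions without version matched 28039 of 55681 probes to 21159 RefSeq symbols (GRCm38.p6), and other probes kept their accession. A probe was kept if the scanner called it well above background in each RL channel or each control channel, and the brightest such probe stood for the gene. This left 21743 to test (genes, or transcripts without a symbol), 21721 of them with no array missing. RL over control was fitted with lmFit, then moderated by eBayes (degrees of freedom: residual 2, prior 6.65; with a dye term 1 and 29.50) and adjusted by Benjamini-Hochberg over all genes, with a threshold of 0.05. The ratio pairs the cultures of a tumor, as the labels give them. All 3 arrays lay on 1 slide. The SE is limma's moderated one.

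The genes and lists were chosen with earlier results of these data known, so lists are given by counts and medians. The genes given by level are Mki67, Top2a, Ccnb1, Cdk1, Plk1, Aurkb, Birc5 and Foxm1, the 5 highest and 5 lowest means, and genes whose probes differ in sign; of other lists, the highest and lowest mean, Ccnd1, Cdkn1a and known RL responders. The alternatives were a dye term, an intensity trend, a rank product (pfp from a gamma distribution), an unadjusted p, no background correction, processed intensities, no spatial loess, median centering, leaving out Aquantile, keeping dim probes or asking for signal in all 6 channels, keeping outlier spots, averaging over the probes of each gene, taking the log2 ratios of the authors, and leaving out each tumor. The fits were tested on simulated data.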

Additional observations from a re-analysis of the deposited data

How the results depend on the processing

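The counts of mitotic genes past the threshold were 0 higher and 0 lower in limma under every alternative except those given here. Without each tumor in turn, the number higher ranged from 0 to 1 (Smc4, without tumor 2, where 557 genes were higher and 915 lower over the whole array), and the number lower stayed at 0. With an unadjusted p under 0.05 in place of the adjusted p, 5 were higher. The median log2 change was 0.07 to 0.09 under all alternatives other than median centering in place of loess (-0.03, beside -0.09 over all genes) and those without 1 tumor (0.01 to 0.12). The number of genes above 0 in all 3 tumors was 13, from 9 to 14 under other alternatives, and 1 under median centering; the number above 0 in both remaining tumors ranged from 13 to 24. The number below 0 in all 3 was 1, and 2 without background correction, 2 with processed intensities and 0 under median centering; in both remaining tumors it ranged from 1 to 9. Under median centering the medians by tumor were -0.27, 0.48 and -0.36, beside -0.32, 0.33 and -0.28 over all genes, with signs that follow the dye order. Of 720 values of named genes under alternatives, 678 moved by less than 1 SD between tumors without crossing the threshold, 21 moved by more, and 21 crossed the threshold in the same direction, all with a dye term or without tumor 2. None of the named genes had passed it before, so 0 could lose it or reverse. The cause of these differences was not tested.

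With 3 arrays and 1 of them in the other dye order, a dye bias and a difference between tumors cannot be told apart. The fit with a dye term had 1 residual degree of freedom per gene, and its prior degrees of freedom (29.50) were estimated over all genes tested. On 1 simulated data set its share of false calls was above its threshold, which does not give the rate in these data. It called 121 genes higher and 158 lower over the whole array, beside 1 and 5 without it. The eBayes trend called 9 and 21, and processed intensities 0 and 0. All 41 genes were well above background in every channel, and each had 3 ratios.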
